A study of Mus musculus with 12 samples.

Results

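Tumor necrosis factor, the interleukin-1 cytokines and the receptors through which microglia sense such signals were followed in chromatin of microglia from WT and *Cx3cr1*-KO mice. The 9 genes were *Tnf*, *Il1a*, *Il1b*, *Il1rn* and *Il6*, which encode secreted factors, and *Tnfrsf1a*, *Tnfrsf1b*, *Il10ra* and *Il6ra*, which encode receptors. They were taken as every row of the deposited peak tables that carries 1 of these gene names, which gave 37 of 26706 Rpb2 peaks, in 7 genes, and 50 of 55862 H3K27Ac peaks, in 8 genes. Rpb2 is a subunit of RNA polymerase II, and H3K27Ac is acetylation of lysine 27 of histone H3, a mark of active promoters and enhancers. Both were measured by ChIP-seq, in which DNA attached to an antibody target is recovered and sequenced. The mice were 2 mo old, on the C57BL/6J background, and littermates. KO mice carried eGFP in both germline copies of *Cx3cr1*, the fractalkine receptor, and WT mice carried none. Each genotype gave a female and a male pool per mark by its labels, each pooled from 3 mice, so that n = 2 pools per genotype throughout, and 4 input samples were not used here.

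Tumor necrosis factor and interleukin-1 are early cytokines of the innate immune response. Tumor necrosis factor acts through 2 receptors, of which Tnfrsf1a is found on most cells and can signal inflammation or cell death, and Tnfrsf1b is more restricted and common on immune cells. Il1a and Il1b share 1 receptor, which Il1rn, the receptor antagonist, blocks. Il6ra binds interleukin-6 and signals through a shared partner chain, and Il10ra is the ligand-binding chain of the receptor for interleukin-10, which restrains inflammation in macrophages. In macrophages, polymerase can sit just downstream of the start of inducible genes before they are fully transcribed, so reads at a promoter do not measure the amount of mRNA.

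The promoters of the 3 cytokine genes on which the results turn are shown because the strongest polymerase peaks of *Tnf* and *Il1a* overlap them, whereas no Rpb2 peak touches that of *Il1b*. The sequences come from RefSeq (GRCm38.p6), run from 250 bases before to 50 after the start site and lie on the minus strand at chr17:35201958-35202257, chr2:129309923-129310222 and chr2:129371090-129371389. Of the 9 genes, 8 were matched in the promoter table, all but *Il10ra*. Capitals mark motif matches.

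Tnf: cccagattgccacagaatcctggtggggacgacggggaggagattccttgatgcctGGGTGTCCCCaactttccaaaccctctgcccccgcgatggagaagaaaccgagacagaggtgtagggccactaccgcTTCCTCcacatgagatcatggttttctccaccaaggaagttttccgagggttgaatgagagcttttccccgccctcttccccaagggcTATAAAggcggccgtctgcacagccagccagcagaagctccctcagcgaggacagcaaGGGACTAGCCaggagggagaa
Il1a: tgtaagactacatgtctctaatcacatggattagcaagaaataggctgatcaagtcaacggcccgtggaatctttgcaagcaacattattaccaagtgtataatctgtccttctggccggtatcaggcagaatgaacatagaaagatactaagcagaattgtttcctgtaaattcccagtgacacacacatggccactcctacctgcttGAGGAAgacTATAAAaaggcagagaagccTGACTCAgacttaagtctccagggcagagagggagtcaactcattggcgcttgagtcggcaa
Il1b: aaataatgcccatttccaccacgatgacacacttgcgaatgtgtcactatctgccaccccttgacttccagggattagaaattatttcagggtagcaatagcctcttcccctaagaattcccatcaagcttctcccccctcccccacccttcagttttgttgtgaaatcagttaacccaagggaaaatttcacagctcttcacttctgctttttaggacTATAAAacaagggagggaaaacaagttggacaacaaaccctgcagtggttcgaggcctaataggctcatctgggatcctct

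All 3 promoters hold a TATA box (TATAAA), at -29 in *Tnf*, -32 in *Il1a* and -31 in *Il1b* by its first base, while 13.6% of all 32851 promoters of the same length hold this motif anywhere. *Tnf* also holds a kappa-B match (GGGNNNNNCC) from -194 to -185, which reads as a match on both strands, another from 30 to 39, and a PU.1 core (GAGGAA) on the minus strand from -117 to -112. *Il1a* holds a PU.1 core from -41 to -36 and an AP-1 match (TGANTCA) from -12 to -6. Of all promoters, 50.8% hold the kappa-B letters, 28.3% the PU.1 core and 7.81% the AP-1 letters. Both strands were searched, and no 2 different motifs overlapped. The C/EBP letters (TTGCNNAAT or TTGCNCAA, in 4.68% of promoters) and the cAMP element core (TGACG, in 20.8%) were not in these 3 windows. The Rpb2 peak at *Tnf* covered 123 of the 300 bases and that at *Il1a* covered 132.

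Peaks had been called in each genotype, so every row came from the WT list alone, the KO list alone or both. Depth and quality differed between libraries. The Rpb2 libraries held 11662185 to 44332626 reads, the KO female library most, with 11.2 to 15.1% in peaks. The Rpb2 peaks of Y-linked genes held 214 (WT) and 266 (KO) reads in the male libraries, 0 in the KO female, and 136 in the library labelled WT female. So 1 library goes against its sex label, and for some peaks values are also given without it. The H3K27Ac libraries held 10395804 to 21134403 reads, and the WT female library stood apart with 15.9% of them in peaks against 61.1 to 65.3% in the others. All 10 microglial marker genes had a peak in both tables, and the summed Rpb2 level of the 9 with a peak near the start was 1710 to 1760 CPM (reads scaled to the normalized size of each library) in WT and 1650 to 1660 in KO. Of 4 border macrophage markers (*Mrc1*, *Lyve1*, *Cd163* and *Pf4*), 0 had an Rpb2 peak, and the summed H3K27Ac level of the 2 with a peak near the start was 18.6 to 20.8 in WT and 4.5 to 11.2 in KO, whose part in the results was not tested. By the same rule, which goes by the center of the peak, 0 of 10 microglial markers had an H3K27Ac peak near the start. All 10 had an H3K27Ac peak, and broad peaks can be centered farther away, so this 0 does not show that acetylation is missing there. The border macrophage sum therefore cannot be set against a microglial one. H3K27Ac sums over all pools were 27.1 to 36.4 for oligodendrocyte, 24.3 to 38.7 for endothelial, 0 to 3.96 for neutrophil and 0.959 to 1.82 for monocyte markers. Of 6 neutrophil, 4 monocyte, 5 lymphocyte, 4 astrocyte and 4 neuron markers, 0 had an Rpb2 peak near a start site. In Rpb2, oligodendrocyte markers summed to 84.0 and 28.3 CPM in WT and 35.3 and 16 in KO, and endothelial markers ranged from 19.8 to 38.9. The allele of the KO mice keeps the *Cx3cr1* start site, so the Rpb2 peak there (-0.23 ± 0.19 SE on the log2 scale, adjusted p = 0.650) does not check the genotype.

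Rpb2 was compared between genotypes first, to ask whether polymerase occupancy of these genes depends on *Cx3cr1*. None of the 37 peaks passed an adjusted p of 0.05 in edgeR's quasi-likelihood test over all peaks, where 0.00749% of all tested peaks did. *Tnf* had more Rpb2 at its promoter in both KO pools than in both WT pools, *Il6ra* had less, and the strongest promoter peaks of *Il1a*, *Tnfrsf1a*, *Tnfrsf1b* and *Il10ra* passed the threshold under none of the alternatives tried. At an unadjusted p under 0.05 there were 6 of 37 peaks, 5 higher and 1 lower in KO, beside 12.2% of all tested peaks. Both KO pools lay above both WT pools at 16 of 37 peaks (43.2%), beside 25.7% of all tested peaks, and below them at 8 (21.6%), beside 21.7%. Of the 5 higher peaks, 4 came from the KO list alone, as did 11 of these 16. Such rows entered through the KO pools, so these counts are no support for a difference. In peaks of both lists, 1 was higher and 1 lower at an unadjusted p under 0.05. Since p-values rest on 2 pools per genotype, and an exact permutation test of 2 against 2 cannot go below 0.333, single peaks can be tested only with the spread shared across peaks. In pooled cells, fewer cells with polymerase at a gene and less polymerase per cell cannot be told apart.

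The single Rpb2 peak named for *Tnf*, the tumor necrosis factor gene (ENSMUSG00000024401, mm10, minus strand), lies at chr17:35201767-35202080 over the start site. The WT pools had 134 reads (labelled female) and 159 (male) in it, and the KO pools 1159 (female) and 435 (male). After TMM scaling these were 104 and 105 CPM in WT and 211 and 169.7 in KO. The KO pools lay above the WT pools with no overlap, 190.2 ± 29.0 against 104 ± 0.34 (SD, n = 2 each). On the log2 scale KO exceeded WT by 0.87 ± 0.24 (SE), with an adjusted p of 0.209. DESeq2 with a prior on fold changes did call it (0.82, adjusted p = 0.00995). The same fit called 4 of the 37 peaks, beside 3.95% of all tested peaks. Among these 4 were the *Il1a* peak at 5421 bp and the *Tnfrsf1b* peak at 661 bp. Both came from the KO list alone and so entered through the KO pools, and the count is no support for a difference. When only peaks within 1000 bp of a start site entered edgeR's fit, the value was 0.99 with an adjusted p of 0.146, and 0.0% of such peaks were called. Across all alternatives the log2 fold change at *Tnf* ran from 0.70 to 1.18 and the adjusted p from 0.00995 to 0.846. Without the library labelled WT female it was 0.85, with an adjusted p of 0.0654, and without the WT male 0.88, with 0.0601.

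**Figure D1:**
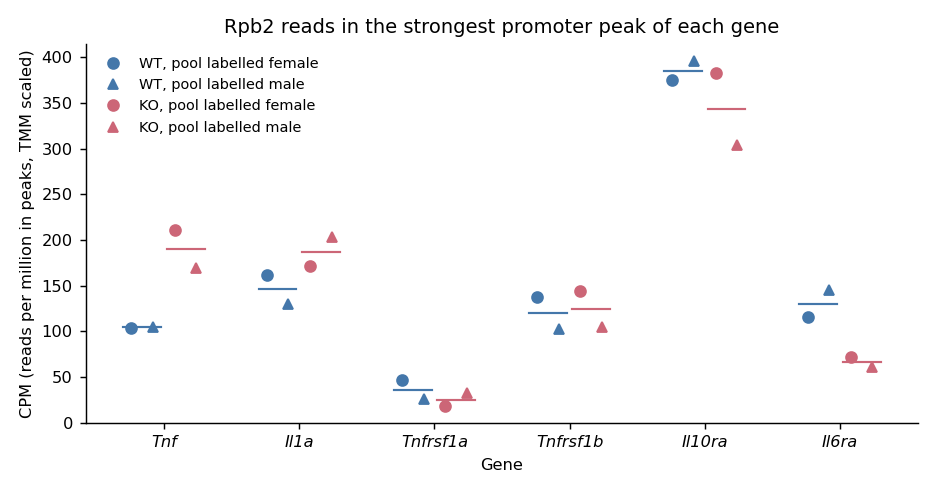
Rpb2 reads in CPM (y axis from 0) at the strongest promoter peak of the 6 genes that have one (x axis). Each point is 1 pool of 3 mice, blue for WT and red for KO, circles for pools labelled female and triangles for pools labelled male, and short lines are means of 2 pools. The KO pools lie above the WT pools at *Tnf*, 211 and 169.7 against 104 and 105, and below them at *Il6ra*, 72.2 and 60.9 against 116 and 145.

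*Il1a*, the gene of interleukin-1 alpha (ENSMUSG00000027399), had 4 Rpb2 peaks. The strongest, over the start site at chr2:129309837-129310054, had 208 and 198 reads for WT and 941 and 520 for KO, in the order female, male, which is kept below. These were 162 and 130.4 CPM in WT and 171 and 203 in KO. Both KO pools were above both WT pools, but the difference (log2 fold change 0.36 ± 0.23 SE, adjusted p = 0.556) was not told apart from the spread between pools. An intronic peak 5421 bp into the gene, at chr2:129304430-129304672, came from the KO list alone and had 1 and 1 WT reads against 99 and 27 KO reads. Its summed KO over WT ratio was 21.9, with an exact 95% interval of 5.94 to 183 that covers counting error only. A row of the KO list alone entered the table through the KO pools, so its direction was favored by that selection, and its ratio, interval and calls are a description and no support for a difference. The fitted log2 fold change of 4.24 ± 1.14 (SE, adjusted p = 0.200) rests on 1 and 1 WT reads. DESeq2 without shrinkage gave 4.32 (adjusted p = 0.0388). DESeq2 with its prior called this peak (1.74, adjusted p = 0.0234), and edgeR did without the library labelled WT female (4.36, adjusted p = 0.0122) or without the WT male (4.15, adjusted p = 0.0198). It was not called with loess offsets (1.55, adjusted p = 0.794), nor without the KO female (adjusted p = 0.884) or the KO male pool (adjusted p = 0.930). The remaining peaks, 817 bp inside the gene and 4226 bp before it, had log2 fold changes of 0.77 and -0.93. A further 2 Rpb2 peaks over *Il1a* are named for *Gm14023* in the table and had 20 and 40 WT reads against 127 and 72 KO reads, with log2 fold changes of -0.014 and 0.475.

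*Il1b*, the gene of interleukin-1 beta (ENSMUSG00000027398), had no Rpb2 peak over its body or start. Its only row, described because no other exists and so chosen after its values were seen, lies 9701 bp before the start, between genes, at chr2:129380740-129380941 and came from the KO list alone. It had 9 and 9 WT reads against 69 and 129 KO reads, which is 7.0 and 5.93 CPM against 12.5 and 50.3. The KO pools did not overlap the WT pools but lay far apart from each other, and KO exceeded WT by 2.26 ± 0.77 (SE, adjusted p = 0.280) on the log2 scale. Without the KO male pool this was 0.95. *Il1rn*, the receptor antagonist, and *Il6*, interleukin-6, had no Rpb2 peak, and the nearest of any name lay 34921 and 134785 bp from them. A gene without a row had no peak that the authors' calling kept, which does not show that polymerase is absent from it.

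**Figure D2:**
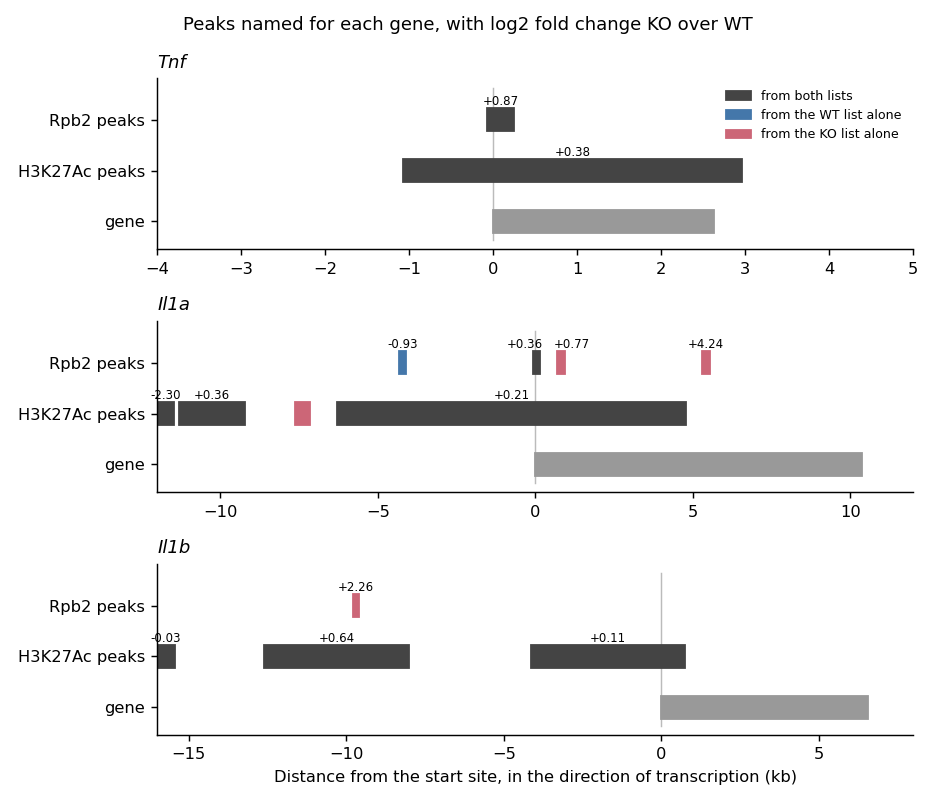
Rpb2 and H3K27Ac peaks named for *Tnf*, *Il1a* and *Il1b*, drawn to scale by distance from the start site in kb along the direction of transcription (x axis), with the gene in grey. Colors give the list of origin, and the numbers over peaks are log2 fold changes, KO over WT, given for every Rpb2 peak and for H3K27Ac peaks from both lists, and peaks beyond the drawn windows are left out. Each promoter lies under H3K27Ac, and *Il1b* has its only Rpb2 peak, at 2.26, inside a distal H3K27Ac peak, at 0.64.

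Among the receptors, *Tnfrsf1a* had 7 Rpb2 peaks, *Tnfrsf1b* 9, *Il10ra* 6 and *Il6ra* 9. Some lie outside the gene they are named for. The *Tnfrsf1a* peaks at 13977 and 14571 bp lie in another transcript (NM_198604), and the *Tnfrsf1b* peak 23412 bp before the start lies in NM_009401. Apart from the peaks described below, log2 fold changes ran from -1.08 to 1.36 at *Tnfrsf1a* and from -0.67 to 1.52 at *Tnfrsf1b*, and none passed. *Tnfrsf1a*, the widely expressed tumor necrosis factor receptor (ENSMUSG00000030341, plus strand), had its strongest promoter peak at chr6:125349634-125349856, with 60 and 39 WT reads against 99 and 83 KO reads. The 4 values, 46.7 and 25.7 CPM in WT and 18.0 and 32.4 in KO, overlapped between genotypes (log2 fold change -0.53 ± 0.53 SE, adjusted p = 0.708). The log2 fold change was -0.058 without the library labelled WT female and -0.90 without the WT male. *Tnfrsf1b*, the more restricted receptor (ENSMUSG00000028599), had 138 and 103 CPM in WT and 145 and 105 in KO at chr4:145246678-145246912. The genotypes overlapped there (0.06 ± 0.27, adjusted p = 0.946). A second peak of *Tnfrsf1b*, 661 bp past the start in the first intron at chr4:145246076-145246342, came from the KO list alone and had 2 and 0 WT reads against 76 and 69 KO reads. Its summed ratio was 25.2 (exact 95% interval 6.86 to 210, counting error only), again for a row selected through the KO pools, and the adjusted p in edgeR was 0.198, the lowest among the 37 peaks. DESeq2 with its prior called it (2.03, adjusted p = 0.00650), and so did edgeR without the library labelled WT female (9.01, adjusted p = 0.00188) or without the WT male (3.66, adjusted p = 0.0163). It was not called with loess offsets (1.80, adjusted p = 0.771), nor without the KO female (adjusted p = 0.759) or the KO male pool (adjusted p = 0.948). Its fitted value of 4.71 on the log2 scale rests on 2 and 0 WT reads, and DESeq2 without shrinkage gave 4.79 (adjusted p = 0.0157). The contrast of this peak with the 0.06 at the start was not tested.

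*Il10ra*, the interleukin-10 receptor chain (ENSMUSG00000032089), carried the highest promoter level of the set, 375 and 396 CPM in WT and 383 and 304 in KO at chr9:45269001-45269229. The genotypes overlapped (log2 fold change -0.16 ± 0.18 SE, adjusted p = 0.746). *Il6ra*, the interleukin-6 receptor (ENSMUSG00000027947), was the 1 gene with a lower promoter level in both KO pools. Its peak at chr3:89913056-89913318 had 149 and 220 WT reads against 397 and 156 KO reads, or 116 and 145 CPM against 72.2 and 60.9. The means were 130.3 ± 20.5 in WT and 66.5 ± 8.02 in KO (SD, n = 2 each). On the log2 scale the difference was -0.97 ± 0.28 (SE), with an adjusted p of 0.218. DESeq2 called it with its prior (-0.92, adjusted p = 0.0133) and without shrinkage (-0.98, adjusted p = 0.0140). With edgeR it was not called among peaks within 1000 bp of a start site (-0.84, adjusted p = 0.296) or peaks of both lists (-0.80, adjusted p = 0.362). Without the library labelled WT female the value was -1.13, and without the WT male -0.79. The other 8 peaks of *Il6ra*, all from the KO list alone, ran from -0.51 to 1.35, and none passed. Over *Il10ra* lie 10 more Rpb2 peaks named for *Mir7086*, with a median log2 fold change of -0.04, and over *Il6ra* 6 named for *She*, with a median of 0.24.

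Per kb of peak, promoter Rpb2 levels of the members ranked from *Il10ra*, at 1334 to 1735 CPM per kb over the 4 pools, through *Il1a*, at 601 to 935, *Tnfrsf1b*, at 439 to 618, *Tnf*, at 333 to 673, and *Il6ra*, at 232 to 553, to *Tnfrsf1a*, at 81.1 to 210.1. *Il10ra* lay above and *Tnfrsf1a* below all others in every pool, while neighbors between them overlapped in range. Among the 10125 Rpb2 peaks within 1000 bp of a start site, *Il10ra* stood at percentile 99.6 of mean level, *Il1a* at 97.2, *Tnfrsf1b* at 92.3, *Tnf* at 90.2, *Il6ra* at 84.6 and *Tnfrsf1a* at 42.8.

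The list that a peak came from moved with its fold change. KO-list peaks had a median log2 fold change of 0.51 over all genes and 0.69 in the 22 member peaks, WT-list peaks -0.89 and -0.93 (3 member peaks), and peaks of both lists -0.17 and 0.09 (12 member peaks). In peaks of both lists, both KO pools lay above the WT pools at 5 of 12 member peaks (41.7%) and 10.2% of all. The KO female library was the deepest, and KO-list peaks numbered 14148 against 3665 of the WT list. Its part in the KO-list values was not tested.

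**Figure D3:**
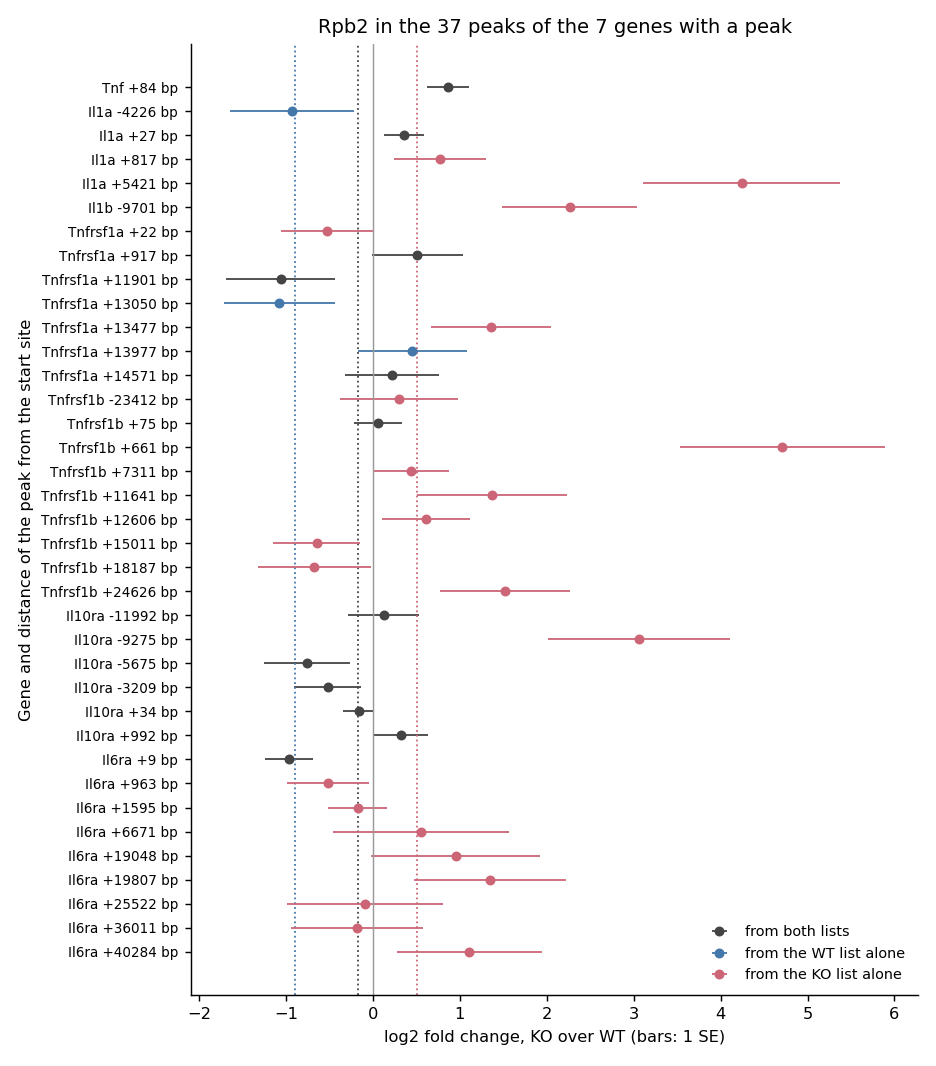
Log2 fold change, KO over WT (x axis), of Rpb2 in each of the 37 peaks (y axis, gene and distance from its start site), with bars of 1 SE. Colors give the list of origin, and dotted lines mark the median of all peaks of each list, -0.17 for both lists, -0.89 for WT and 0.51 for KO. The peaks farthest to the right, *Tnfrsf1b* at 661 bp and *Il1a* at 5421 bp, come from the KO list alone.

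Reads inside the gene relative to its promoter were compared within each library, which removes depth. Only peaks named for the gene were counted. At *Il1a* the ratio was 0.00413 and 0.00457 in WT and 0.0894 and 0.0437 in KO, from the 1 intronic peak above. *Il6ra* had ratios of 0.606 and 0.713 in WT and 1.15 and 1.59 in KO over 7 peaks. *Tnfrsf1b* had 1.22 and 0.981 in WT and 1.0 and 1.27 in KO over 6 peaks, and *Tnfrsf1a* 0.302 and 0.557 in WT and 0.251 and 0.172 in KO from 1 peak. Among peaks named for the gene, the KO pools were above both WT pools at *Il1a* and *Il6ra*, below them at *Tnfrsf1a*, and overlapped them at *Tnfrsf1b*. Over all 1945 genes with both kinds of peak, the median ratio was 0.466 and 0.419 in WT and 0.554 and 0.553 in KO, so KO libraries were higher there too. All body peaks of *Il1a*, *Tnfrsf1b* and *Il6ra* came from the KO list, and these ratios were given no test.

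H3K27Ac was then compared to ask whether acetylation at the same genes differed. None of the 50 member peaks passed an adjusted p of 0.05, where 0.0233% of all tested peaks did, and DESeq2 with its prior also called 0. At an unadjusted p under 0.05 there were 3 of 50, beside 4.95% of all tested peaks, 2 higher and 1 lower. Both KO pools lay above both WT pools at 7 peaks (14%), beside 14.3% of all, and below them at 10 (20.0%), beside 13.0%. The median log2 fold change was 0.08 over the member peaks and -0.21 over all, and 0.10 and 0.04 in peaks of both lists. The shares of reads in peaks were 15.9 and 61.4% in the 2 WT pools, and the part of this gap in the spread was not tested.

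Every gene with H3K27Ac rows had a broad peak reaching within 1000 bp of its start, a definition by the edge of the peak that was set after the peaks were seen. At *Tnf*, the peak at chr17:35199048-35203085 covered the whole gene and had 168 and 384 WT reads against 800 and 1015 KO reads, or 47.5 and 61.4 CPM against 60.8 and 81.5. The pools overlapped between genotypes by a small margin, and KO exceeded WT by 0.38 ± 0.29 (SE, adjusted p = 0.816) on the log2 scale. At *Il1a* the values were 135 and 295 CPM in WT and 224 and 275 in KO (0.21 ± 0.32), and at *Il1b* 40.7 and 83.8 against 56.9 and 78.2 (0.11 ± 0.29). At both interleukin-1 genes the KO pools lay between the WT pools, with the WT female pool lowest. *Il6*, which had no Rpb2 peak, had an H3K27Ac peak over its start with 39.0 and 46.2 CPM in WT and 55.4 and 60.6 in KO. Its KO pools were above both WT pools, without passing the test (0.44 ± 0.30 SE, adjusted p = 0.811). *Il1rn* had no H3K27Ac row, and the nearest peak of any name lay 15756 bp away.

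Among the receptor promoters, *Il10ra*, under a peak of 25402 bp, had 459.7 and 673 CPM in WT and 739 and 707 in KO (0.35 ± 0.37, adjusted p = 0.911). *Tnfrsf1b*, under one of 20537 bp, had 452 and 575 in WT and 605 and 574 in KO (0.20 ± 0.36), and *Il6ra* 159 and 181 in WT and 209.8 and 180.4 in KO (0.20 ± 0.31). *Tnfrsf1a* had 96.1 and 126 in WT and 113 and 125 in KO (0.10 ± 0.30). None of these 4 passed the test. Both KO pools at *Il10ra* lay above both WT pools, and at the other 3 the genotypes overlapped. Per kb of peak, the order by mean level was *Tnfrsf1b*, *Il10ra*, *Il6ra*, *Il1a*, *Tnfrsf1a*, *Tnf*, *Il1b* and *Il6*, from 26.9 down to 11.1 CPM per kb, and each neighbor overlapped the next in range. At *Il6ra*, whose Rpb2 promoter value was -0.97, the H3K27Ac value was 0.20.

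**Figure D4:**
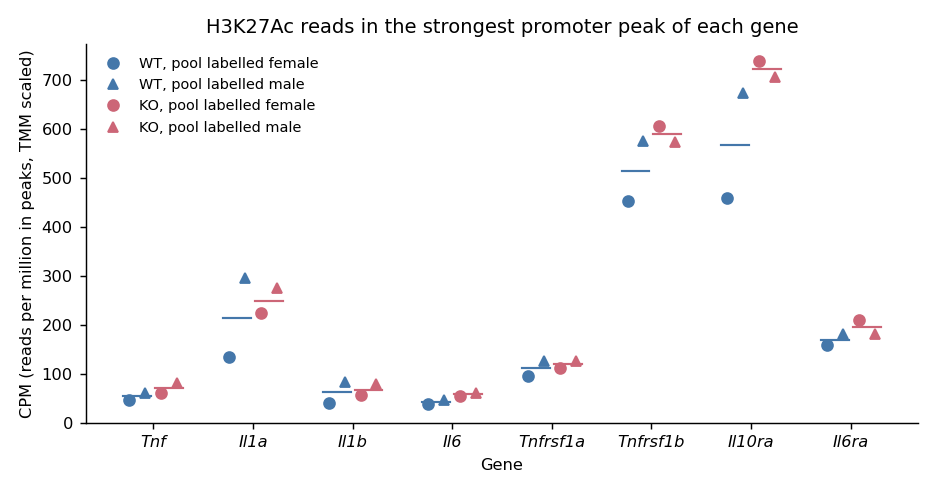
H3K27Ac reads in CPM (y axis from 0) at the strongest promoter peak of the 8 genes that have one (x axis). Points are pools of 3 mice, blue for WT and red for KO, circles for female and triangles for male, and short lines are means of 2 pools. The WT female pool, with 15.9% of its reads in peaks, is the lowest point at every gene, and at *Il10ra* it lies at 459.7 against 673 to 739 in the others.

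The 3 H3K27Ac peaks with the lowest p lay away from promoters. One, between genes 10314 bp before *Il1b* at chr2:129379159-129383748, had 137 and 519 WT reads against 1169 and 1275 KO reads, or 38.7 and 83.0 CPM against 88.8 and 102. Both KO pools were above both WT pools, the WT male pool only just below (0.64 ± 0.29, adjusted p = 0.811). The only Rpb2 peak named for *Il1b* lies inside it. Another, 76985 bp before *Il6* at chr5:29934478-29937780, had 26.3 and 36.6 CPM in WT and 44.3 and 54.9 in KO (0.65 ± 0.31, adjusted p = 0.811). The last, in the first intron of *Il6ra* at chr3:89905168-89906473, had 16.1 and 10.4 in WT and 6.00 and 5.22 in KO (-1.23 ± 0.60, adjusted p = 0.811). *Il6* had 13 H3K27Ac peaks reaching 120810 bp upstream, and *Il1a* had 10. Distal peaks carry the name of the nearest start site, which does not show that they act on that gene.

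Leaving out 1 WT pool changed the H3K27Ac picture. Without the WT female pool, the values at *Il1a* and *Il1b* promoters became -0.25 and -0.32, that at *Tnf* 0.21, that at *Il10ra* 0.095 and that of the distal *Il1b* peak 0.20. The peak at chr4:145267347-145273033 moved from -0.39 to -0.75. It is named for *Tnfrsf1b* but is centered 23320 bp before that start, in an intron of another transcript (NM_009401). Without the WT male pool, *Il1a* was at 0.88, *Il1b* at 0.73, *Tnf* at 0.58, *Il10ra* at 0.65 and the distal *Il1b* peak at 1.30. The only WT library left in that fit was the one with 15.9% of its reads in peaks. In the Rpb2 data, *Tnf* stayed at 0.85 without the library labelled WT female and 0.88 without the WT male, and *Il6ra* at -1.13 and -0.79.

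**Figure D5:**
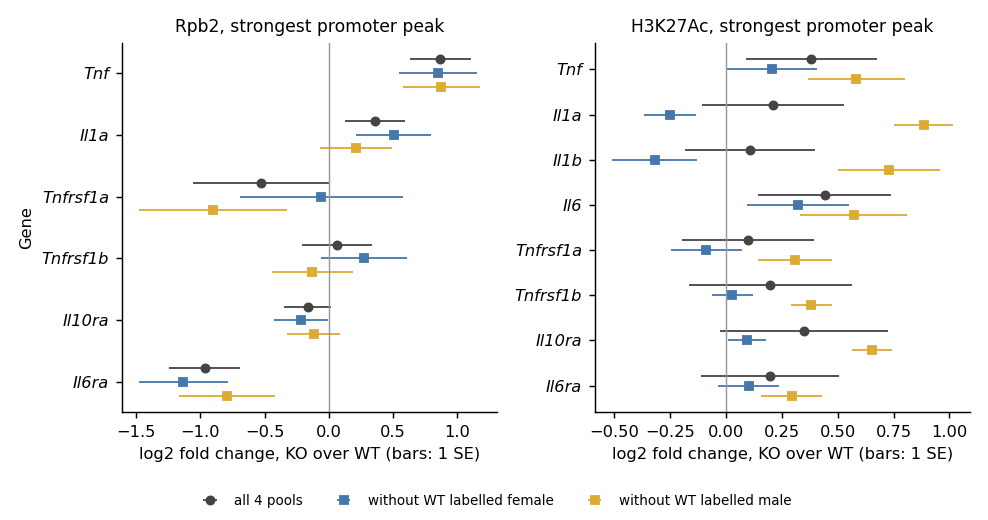
Log2 fold change, KO over WT (x axis, bars of 1 SE), at the strongest promoter peak of each gene (y axis) for Rpb2 on the left and H3K27Ac on the right, with all 4 pools and without either WT pool. At *Tnf* the Rpb2 values are 0.87, 0.85 and 0.88, whereas at *Il1a* the H3K27Ac values are 0.21, -0.25 and 0.88.

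Both marks were set side by side by position. Of the 37 Rpb2 peaks, 28 (75.7%) overlapped an H3K27Ac peak by at least 1 base, beside 76.6% of all Rpb2 peaks, and away from start sites 17 of 26 (65.4%), beside 63.4% of all. All 6 strongest Rpb2 promoter peaks lay under H3K27Ac. Within the 25402-bp H3K27Ac peak at *Il10ra*, with a value of 0.35, lay all 6 Rpb2 peaks named for the gene, and their log2 fold changes ran from -0.76 to 3.06. The 3.06 belonged to a KO-list peak 9275 bp before the start, with 4 and 2 WT reads against 40 and 77 KO reads (adjusted p = 0.280 in edgeR). Its KO pools lay far apart, at 7.27 and 30.0 CPM. This row entered through the KO pools, so its value is a description and no support for a difference. Without the library labelled WT female it was 3.73.

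Further genes of the same pathways were read from the same fits. Of 49 listed genes, 39 had Rpb2 peaks and 46 had H3K27Ac peaks. None of their 137 Rpb2 or 245 H3K27Ac peaks passed the threshold in either direction. At an unadjusted p under 0.05, 8 Rpb2 peaks were higher and 9 lower in KO (12.4% together, beside 12.2% of all Rpb2 peaks), and 4 and 5 of H3K27Ac (3.67%, beside 4.95% of all). DESeq2 with its prior called 8 Rpb2 peaks, 3 higher and 5 lower (5.84%, beside 3.95% of all), and 0 of H3K27Ac. By role, the median Rpb2 log2 fold change was 0.23 over 10 peaks of ligands, -0.22 over 25 of receptors, 0.12 over 31 of cytokine processing, -0.11 over 53 of adaptors and kinases and -0.03 over 18 of inhibitors, beside 0.04 over all peaks. Next to *Tnf*, *Lta*, which encodes lymphotoxin alpha, had 1 Rpb2 peak 14774 bp before its start with 1 and 15 WT reads against 59 and 42 KO reads (1.30 ± 1.01, adjusted p = 0.626). Its H3K27Ac peak 4539 bp before the start had 91 and 197 WT reads against 643 and 515 KO reads (0.65 ± 0.31, adjusted p = 0.811). *Ltb*, lymphotoxin beta, had no row in either table.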

How the data were processed

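Per the study's methods, the authors aligned single-end ChIP-seq reads of fixed, sorted CD11b+ CD45lo microglia to mm10 (Bowtie 2), dropped reads without a unique position, ran HOMER to find peaks, filtered them for agreement between pools and joined both genotypes' lists. They deposited raw counts for every joined peak and library. Here, each mark was fitted with edgeR 4.0.16 in R 4.3.3 (glmQLFit, glmQLFTest, TMM, Benjamini-Hochberg adjustment over all tested peaks, genotype alone), using peaks that averaged 4 or more reads in either genotype, which every member peak did. DESeq2 1.42.0 and limma 3.58.1 (loess offsets) gave alternatives. Single-library ratios used a prior count of 2. Scripts were tested on simulated data. Reads carry no molecular identifiers, so intervals cover counting error only. Totals were 10395804 to 44332626 reads. Members, pathway and marker lists and motifs were chosen with earlier results of these data known. Named in full were, per gene and mark, the strongest promoter peak and, per mark, the 3 peaks with the lowest p. Total mapped reads and the newer quasi-likelihood method were alternatives added after seeing the data.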

Additional observations from a re-analysis of the deposited data

Results flagged for a closer look

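At 7 of the 20 peaks named in the report, the KO over WT ratio taken from the pools labelled female and the one from the pools labelled male had opposite signs. The difference between the sexes was not tested, since each sex has 1 pool per genotype, and for Rpb2 the library labelled WT female goes against its label. Log2 ratios are given as female, male and female minus male. For Rpb2 they were -1.34, 0.33 and -1.66 at the *Tnfrsf1a* promoter and 0.03, -0.38 and 0.41 at the *Il10ra* promoter. For H3K27Ac they were 0.73, -0.10 and 0.83 at the *Il1a* promoter and 0.48, -0.10 and 0.58 at the *Il1b* promoter. At the *Tnfrsf1b*, *Il6ra* and *Tnfrsf1a* promoters the H3K27Ac differences were 0.42, 0.40 and 0.24, with male ratios of -0.0033, -0.0043 and -0.0054. All 5 H3K27Ac peaks had the higher ratio in the female pools, where the WT library had 15.9% of its reads in peaks.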

How the results depend on the processing

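Of 272 values of the 20 named peaks under alternatives, 241 kept their direction and side of the threshold, 20 passed it where the reported fit did not and 11 changed sign. For Rpb2, edgeR called 2 peaks of all genes, against 1056 with DESeq2 and its prior, 1022 with DESeq2 without shrinkage, 30 with at least 10 reads in every library, 15 with loess offsets, 272 with the newer quasi-likelihood method, 8 in peaks of both lists, 0 near start sites, and 0 to 2210 with a pool left out (0 without the KO female, 1963 without the WT male and 2210 without the library labelled WT female). Member peaks called numbered 0, against 4 with DESeq2 with its prior, 4 without shrinkage, and 0 to 4 with a pool left out (4 without the library labelled WT female and 2 without the WT male). For H3K27Ac, 13 peaks were called, against 240 with DESeq2 without shrinkage, 1 with at least 10 reads in every library, 0 with the newer method, 0 in peaks of both lists, 0 near start sites, and 2 to 8138 with a pool left out (2 without the KO female, 6 without the KO male, 506 without the WT female and 8138 without the WT male). Member peaks called numbered 0, and 0 to 10 with a pool left out (1 without the WT female and 10 without the WT male).

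Sign changes were at values that were small in the reported fit, but not all stayed small. Without the WT female pool, H3K27Ac was at -0.32 at the *Il1b* and -0.25 at the *Il1a* promoter. The Rpb2 value of the *Il10ra* promoter, -0.16, was 0.00051 in peaks of both lists and 0.15 with total mapped reads, a scaling that moved the median of all peaks to 0.37. With loess offsets, H3K27Ac values were -7.1e-05 at the *Il1b*, -0.047 at the *Tnfrsf1a* and -0.014 at the *Tnfrsf1b* promoter. With a pool left out, the *Tnfrsf1b* promoter ran from -0.19 to 0.27 in Rpb2, and the H3K27Ac promoter values ran from -0.32 to 0.73 at *Il1b*, -0.086 to 0.31 at *Tnfrsf1a* and -0.25 to 0.88 at *Il1a*. The cause was not tested.

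With the sex label as a replicate block, 4 Rpb2 peaks and 12 H3K27Ac peaks were called, and 0 member peaks in either. The labels share only a number here, since pools of a sex are different animals, and deviations of same-numbered pools correlated at -0.0076 and -3e-04. Leaving out a pool leaves a lone sample in 1 genotype, which is assumed to vary like the other.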
